A study of Mus musculus with 45 samples.

Results

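Spic, Hmox1, Slc40a1, Vcam1, Cd163, Hp, Slc11a1, Tfrc, Ftl1 and Fth1 were examined as red pulp and iron handling genes, 10 of the 55367 gene symbols in the count table, in all 4 tissues and 15 groups of the study. The genes were chosen by name for their place in splenic red pulp or in iron handling, with earlier results of these data known. Young adult female BALB/c mice carried a porous polycaprolactone scaffold under the skin of the upper back. They then received 2 × 1000000 cells of 67NR, 4T07 or 4T1 in the right mammary fat pad, or no tumor (healthy control). These 3 lines are sisters from 1 spontaneous mammary tumor: 67NR is nonmetastatic, 4T07 is invasive but does not form metastases, and 4T1 is metastatic. Scaffold, lung and spleen were taken at day 14 from all 4 kinds of mice, and the primary tumor from the 3 tumor-bearing kinds, with 3 libraries in each group. No labels tie tissues of 1 mouse to each other, and 67NR, 4T07 and 4T1 each model a tumor by 1 cultured line in 1 inbred strain.

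The red pulp of the spleen holds macrophages that take up old red blood cells, break down their heme and return the iron to the blood. Their identity depends on the transcription factor Spic. Hmox1 (heme oxygenase) opens the heme ring and frees the iron, Slc40a1 (ferroportin) exports iron from the cell, and Vcam1 is an adhesion molecule that these macrophages carry along with endothelium and stroma. Cd163 is the receptor that clears hemoglobin bound to haptoglobin. Hp encodes haptoglobin itself, which liver, lung, maturing neutrophils and other cells make. Slc11a1 moves divalent metal out of the phagosome. Tfrc is the transferrin receptor, by which cells take up iron and which erythroblasts carry at high density. Ftl1 and Fth1 encode the light and heavy chains of ferritin, the iron store.

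Iron-regulatory proteins bind a hairpin, the iron-responsive element, in some of these transcripts: in a 5′ UTR the bound protein holds back translation, and in the 3′ UTR of Tfrc it protects the RNA from decay. The letters CNNNNNCAGTGN, with N for any base but no G in the last place, followed by 5 bases that can pair (G with U included) with the 5 before the CAGTGN loop, were searched on the sense strand of the GENCODE vM1 coding transcripts (NCBIM37). They occurred in 4 of the 10 members and in 0.902% of all 22611 genes with a transcript there (204 genes). Fth1, Ftl1 and Slc40a1 held the match in the 5′ UTR, as 0.0973% of genes did, and Tfrc held 4 matches in the 3′ UTR, where 0.407% of genes had any. The matches are shown 5′ to 3′, in 28 bases each, because they are what the ferritin, ferroportin and transferrin receptor transcripts share, with the 6-base loop in capitals.
Fth1: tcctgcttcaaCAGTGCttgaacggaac
Ftl1: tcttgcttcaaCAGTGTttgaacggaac
Slc40a1: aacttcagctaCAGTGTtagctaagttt
Tfrc 1: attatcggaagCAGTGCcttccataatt
Tfrc 2: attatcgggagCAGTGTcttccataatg
Tfrc 3: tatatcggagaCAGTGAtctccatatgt
Tfrc 4: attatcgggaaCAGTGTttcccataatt
In NCBIM37 the Fth1 element lies at chr19:10057223-10057250 (+ strand), the Ftl1 element at chr7:52715149-52715176 (− strand) and the Slc40a1 element at chr1:45982310-45982337 (− strand). The Tfrc elements lie on the + strand at chr16:32631306-32631333, chr16:32631685-32631712, chr16:32631750-32631777 and chr16:32631797-32631824. The other 6 members held no such letters in the transcripts searched. A match is a description of the letters. The counts below measure RNA, so they do not read a hold on translation.

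Library totals ran from 3491888 to 8175380 counts (median 5149589), so 3 counts correspond to 0.367 to 0.859 CPM (counts divided by the library's total and multiplied by 1000000). Levels are given in CPM. Each library counts transcripts by a tag near the 3′ end, so a gene's CPM does not scale with its length, although the tag's position still affects it. The p-values of the fits rest on the spread between the 3 libraries within a group, pooled over all groups fitted and moderated across genes. In bulk tissue, fewer cells of a type and less RNA per cell cannot be told apart. The tissues held their markers: 6 lung epithelium genes (surfactant genes and others) summed to 29112 to 38102 CPM in control, 67NR and 4T1 lungs. In spleens, 4 genes (Tlx1, Nkx2-3, Nkx2-5 and Stab2, chosen after the values were seen) summed to 95.3 to 267 CPM. They are called spleen stroma here, although Stab2, a gene of sinusoidal endothelium, gave a mean of 164 CPM of that sum in control spleens. All 3 libraries labelled 4T07 lung stood apart from the other 9 lungs. Their lung epithelium sum was 5834 to 14578 CPM, and their spleen stroma sum was 54.9 to 92.7 CPM against 4.86 to 9.77 CPM in the other lungs and 95.3 to 109 CPM in 4T07 spleens. In them 17 erythroid genes (of 20 listed) summed to 73325 to 94600.2 CPM against 17761 to 36609 CPM in the other lungs, 6 genes of dividing cells to 1776 to 2531 against 95.5 to 239.5 CPM, and 6 B cell genes to 409 to 544 against 108 to 181 CPM. Single libraries of 4T07 scaffold (library 22) and 4T07 tumor (library 31) also held more erythroid RNA (25614 and 22631 CPM) and spleen stroma RNA (26.2 and 13.6 CPM) than the others of their group. Results that rest on these 5 libraries are given with that fact beside them, and without them where that leaves a comparison. In 4T1 scaffolds the spleen stroma sum reached 14.0 CPM (median 8.02 CPM) and the erythroid sum 9511 CPM (median 3934 CPM). No 4T1 scaffold was set apart for this, so comparisons with 4T1 scaffolds carry that limit.

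**Figure D1:**
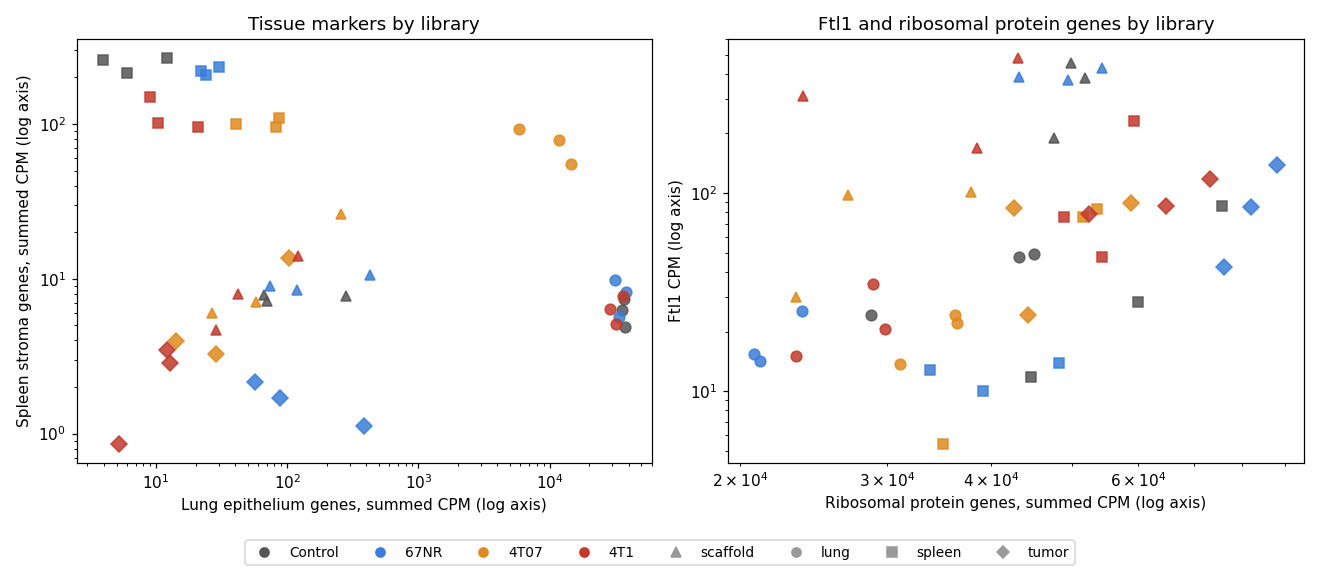
Left, each library by the summed CPM of 6 lung epithelium genes (x, log axis) and of 4 spleen stroma genes (y, log axis). Right, each library by the summed CPM of 85 ribosomal protein genes (x, log axis) and the CPM of Ftl1 (y, log axis). Color marks the inoculated line and shape the tissue. The 3 4T07 lungs lie between the other lungs and the spleens on the left.

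Of the 3 tissues taken from control mice, the spleen held the most Spic, Hmox1, Slc40a1, Vcam1, Cd163 and Tfrc. The lung held the most Hp, and the scaffold the most Slc11a1, Ftl1 and Fth1. A gene was called when its edgeR quasi-likelihood p, adjusted by Benjamini and Hochberg's method over every gene tested, was under 0.10 and the change was more than 2-fold. Fold changes come from a fit with TMM scaling (edgeR's scaling for library composition), so they can differ from the ratio of CPM means. Of the 10 members, 8 were called in control lung against control spleen (39.9% of 21602 genes were), 10 in control scaffold against control spleen (34.5%) and 6 in control scaffold against control lung (32.6%). Spic measured 124, 92.8 and 92.1 CPM in the control spleens, 4.18, 2.16 and 1.78 CPM in the control lungs and 2.52, 6.33 and 3.78 CPM in the control scaffolds, and the spleens did not overlap the others. Slc40a1 was likewise 340.4, 311 and 406 CPM in the spleens against 15.2, 14.8 and 12.5 CPM in the lungs (log2 fold change -4.67, SE 0.19, adjusted p = 1.37e-10) and 17.2, 21.7 and 15.6 CPM in the scaffolds. Hmox1 had 436, 788 and 868 CPM in the spleens, 278, 208 and 144 CPM in the scaffolds and 42.2, 36.6 and 37.7 CPM in the lungs. These 3 sets did not overlap, and scaffold exceeded lung at log2 fold change 2.66, SE 0.28, adjusted p = 1.65e-06. For Cd163 the order was again spleen, scaffold and lung, at 47.4 ± 3.53, 19.5 ± 8.23 and 6.16 ± 2.18 CPM (mean ± SD, n = 3).

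The scaffold led the control tissues in Slc11a1 and in both ferritin genes. Slc11a1 stood at 27.9, 38.2 and 30.2 CPM in the control scaffolds, 17.7, 13.8 and 18.3 CPM in the spleens and 2.27, 1.62 and 1.46 CPM in the lungs, so scaffold exceeded lung by 20.7-fold (log2 fold change 4.37, SE 0.25, adjusted p = 2.44e-09). Fth1 had 1696, 2867 and 2432 CPM there against 711, 493 and 367 CPM in spleen (log2 fold change 2.31, SE 0.28, adjusted p = 9.02e-06). Ftl1 varied widely between spleens, at 86.0, 28.1 and 11.9 CPM, all under the 189, 453 and 381 CPM of the scaffolds. Hp was highest in lung, at 669.9, 801 and 696 CPM, and lowest in spleen, at 20.2, 37.8 and 30.6 CPM (log2 fold change 4.58, SE 0.31, adjusted p = 1.22e-08). Control lung library 5, with the highest of these Hp values, also held 243 CPM of 6 hepatocyte genes, against no more than 15.2 CPM in any other lung. Without control scaffold library 2, Cd163 and Slc11a1 in scaffold against spleen came to -0.83, adjusted p = 0.0233, and 0.99, adjusted p = 0.00313, both under 2-fold. Without control spleen library 7, Ftl1 in scaffold against spleen moved from 3.15 to 4.28 on the log2 scale.

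Over all 15 groups, the order of levels differed between the members. Spic was highest in 67NR and control spleens (109 ± 16.3 and 103 ± 18.3 CPM, mean ± SD, n = 3), which overlapped, then in 4T07 and 4T1 spleens and 4T07 lungs, and no other group had a mean above 6.68 CPM. Slc40a1 went from control and 67NR spleens (352 ± 48.8 and 283 ± 41.6 CPM, overlapping) over 4T1 and 4T07 spleens and 4T07 lungs to 4T1 lungs (80.6 ± 25.8 CPM), which lay apart from the 4T07 lungs above and the 4T1 scaffolds below (29.9 ± 10.9 CPM). Vcam1 led in control and 67NR spleens (866 ± 118 and 791 ± 63.5 CPM) and was lowest in 67NR tumors (36.1 ± 9.19 CPM), both ends without overlap with the next group. The Hmox1 order began with the 4 spleen groups and 4T07 tumors (698 ± 229.8 CPM in control spleen, 433 ± 29.6 CPM in 4T07 tumors), each overlapping the next, and ended with control and 67NR lungs. Cd163 had its 3 highest means in tumors (83.1 ± 16.8 CPM in 4T07), of which 4T1 and 67NR tumors overlapped control spleens. Hp was highest in the 4 lung groups (874 ± 102 CPM in 4T1) and lowest in control and 67NR spleens, which overlapped. Slc11a1 was highest in the 4 scaffold groups (54.7 ± 19.6 CPM in 4T1), which overlapped in a chain and lay apart from all others, and lowest in control lungs. Tfrc led in 4T1 spleens (1080.2 ± 66.2 CPM), apart from the 67NR spleens that followed (778 to 870.4 CPM). Ftl1 and Fth1 both led in 67NR, control and 4T1 scaffolds and were lowest in 67NR spleens (12.2 ± 2.03 and 430.1 ± 65.0 CPM), with overlap between most neighbours.

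Spleens of 4T07 and 4T1 mice held less Spic and Cd163 and more Hp than control spleens, whereas no member was called in 67NR spleens. The 6 spleen comparisons share their libraries. Against control, 5 members were called in 4T07 spleens (18.6% of 21128 genes) and 6 in 4T1 spleens (19.9%), and 0 in 67NR spleens (2.26%), where 4 members had an unadjusted p under 0.05 in edgeR and DESeq2 called 0. Against 67NR spleens, 6 were called in 4T07 (14.7%) and 4 in 4T1 (20.7%). Between 4T1 and 4T07 spleens 0 were called (2.33%), 3 had an unadjusted p under 0.05 in edgeR and DESeq2 called 0. Spic measured 124, 92.8 and 92.1 CPM in control, 110.3, 92.7 and 125 CPM in 67NR, 50.2, 34.7 and 36.4 CPM in 4T07 and 34.8, 47.7 and 38.2 CPM in 4T1 spleens. Each 4T07 and 4T1 spleen lay under every control and 67NR spleen. The change against control was log2 fold change -1.19, SE 0.19, adjusted p = 2.78e-04 in 4T07 and log2 fold change -1.11, SE 0.19, adjusted p = 4.42e-04 in 4T1. Cd163 was 51.5, 45.7 and 45.1 CPM in control, 30.2, 41.1 and 42.2 CPM in 67NR, 18.1, 16.6 and 11.2 CPM in 4T07 and 14.9, 16.4 and 16.2 CPM in 4T1 spleens, with no overlap between control and either of the latter 2 groups. Against control, Cd163 fell in 4T07 (log2 fold change -1.45, SE 0.20, adjusted p = 5.94e-05) and in 4T1 (log2 fold change -1.33, SE 0.20, adjusted p = 1.08e-04). Markers of other spleen cells were lower in the same spleens. Spleen stroma genes summed to 213 to 267 CPM in control, 208 to 233 CPM in 67NR, 95.3 to 109 CPM in 4T07 and 95.3 to 149 CPM in 4T1 spleens. The 10 endothelial genes summed to 521 to 700.3, 613 to 707, 294 to 313 and 223 to 359.7 CPM in that order, the 6 B cell genes to 1325 to 1768, 1603 to 1829, 472 to 561 and 361 to 609 CPM, and 6 T cell genes to 178 to 209, 136 to 146, 63.0 to 77.0 and 82.5 to 92.3 CPM. For all 4 lists the 4T07 and 4T1 spleens lay under every control and 67NR spleen, and their part in the lower Spic, Cd163, Slc40a1, Slc11a1 and Vcam1 values was not tested.

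Ferroportin and Slc11a1 fell in 4T07 spleens, whereas Hmox1 and Vcam1 passed in no spleen comparison. Slc40a1 had 340.4, 311 and 406 CPM in control, 324, 286 and 241 CPM in 67NR, 148, 111 and 146 CPM in 4T07 and 166, 172 and 119.7 CPM in 4T1 spleens. Every 4T07 and 4T1 value lay under every control and 67NR value. Ferroportin RNA thus fell in 4T07 (log2 fold change -1.21, SE 0.18, adjusted p = 1.52e-04), and in 4T1 the change was just short of the fold threshold (log2 fold change -0.96, SE 0.18, adjusted p = 9.51e-04). With library totals in place of TMM scaling it passed, at -1.21, adjusted p = 1.75e-04, and so it did without library 8, 40 or 41 (-1.05, -1.02 and -1.03). Vcam1 went from 997, 769 and 829.9 CPM in control to 496, 369 and 515 CPM in 4T07 and 417, 512 and 409.9 CPM in 4T1, without overlap but short of the threshold, beside the lower endothelial and stroma sums given above (-0.75 and -0.71 on the log2 scale). Hmox1 did not pass in any spleen comparison: it had 436, 788 and 868 CPM in control and 384, 641 and 401 CPM in 4T1 spleens, which overlapped. Slc11a1 fell in 4T07, from 17.7, 13.8 and 18.3 CPM in control to 7.00, 5.00 and 6.30 CPM (log2 fold change -1.28, SE 0.24, adjusted p = 8.37e-04). In 4T1 spleens it was 10.1, 10.5 and 8.91 CPM, under every control, at log2 fold change -0.50, SE 0.23, adjusted p = 0.113.

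Haptoglobin RNA rose in both 4T07 and 4T1 spleens, and transferrin receptor and ferritin heavy chain RNA in 4T1 spleens. Hp rose from 20.2, 37.8 and 30.6 CPM in control to 329.8, 508 and 349 CPM in 4T07 (log2 fold change 3.93, SE 0.28, adjusted p = 1.13e-07) and 443, 274 and 347 CPM in 4T1 (log2 fold change 3.85, SE 0.28, adjusted p = 1.34e-07), while 67NR spleens stayed at 23.0, 36.3 and 25.3 CPM. The sum of 12 neutrophil genes was 1009 to 1766 CPM in control and 67NR spleens and 13113 to 34045 CPM in 4T07 and 4T1 spleens, and its part in the Hp result was not tested. Tfrc rose in 4T1 spleens, from 459, 473 and 512 CPM to 1007, 1136 and 1098 CPM (log2 fold change 1.42, SE 0.16, adjusted p = 6.22e-06). In 67NR and 4T07 spleens it was 870.4, 778 and 803 CPM and 697, 654 and 704 CPM, also above every control but short of 2-fold (0.67 and 0.68 on the log2 scale). The erythroid sum was 85903 to 99621 CPM in control, 95792 to 107771 CPM in 67NR and 121714 to 158891 CPM in 4T07 and 4T1 spleens, and the sum of genes of dividing cells 1321 to 1809 CPM in control and 2719 to 3709 CPM in the others, whose part in the Tfrc values was not tested. Fth1 rose in 4T1 spleens, with 1199, 1047 and 1509 CPM against 711, 493 and 367 CPM in control (log2 fold change 1.51, SE 0.28, adjusted p = 7.24e-04). Ftl1 ranged from 47.7 to 230.3 CPM among 4T1 spleens and from 11.9 to 86.0 CPM among controls, which overlapped, and was called at log2 fold change 1.74, SE 0.72, adjusted p = 0.0822. That Ftl1 call was not made by DESeq2, with library totals, or with at least 10 counts required in every library (1.72, 1.48 and 1.61 on the log2 scale).

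Some of these calls rested on single libraries. Spic in 4T1 against control came to -0.93, adjusted p = 0.00234, without control spleen library 7, short of 2-fold. In 4T1 against 67NR, called at -1.09, it fell just short of 2-fold without 67NR library 18 or 4T1 library 40. Ftl1 in 4T1 against control had adjusted p of 0.230, 0.229 and 0.510 without libraries 8, 9 and 42, was lost without 67NR library 17 too, and moved to 2.85 without library 7. Cd163 in 4T07 against 67NR, at -1.02, was between -0.86 and -0.99 without library 9, 17, 18 or 30. In that comparison Fth1, called at 1.11, came to 1.00 and 0.82 without library 17 or 28, and Ftl1, called at 2.43, had adjusted p of 0.124, 0.116 and 0.119 without libraries 17, 28 and 29. Against 67NR, Ftl1 in 4T1 spleens moved from 3.64 to 2.66 without library 42 and was still called. In the other direction, Ftl1 in 67NR against control (-1.89, not called) was called without library 9 or 30 (-2.38 and -1.92), Fth1 in 4T07 against control (0.72) without library 7 (1.03), Fth1 in 4T1 against 4T07 (0.79) without library 28 (1.08) and Cd163 in 4T1 against 67NR (-0.90) without library 16 (-1.03).

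**Figure D2:**
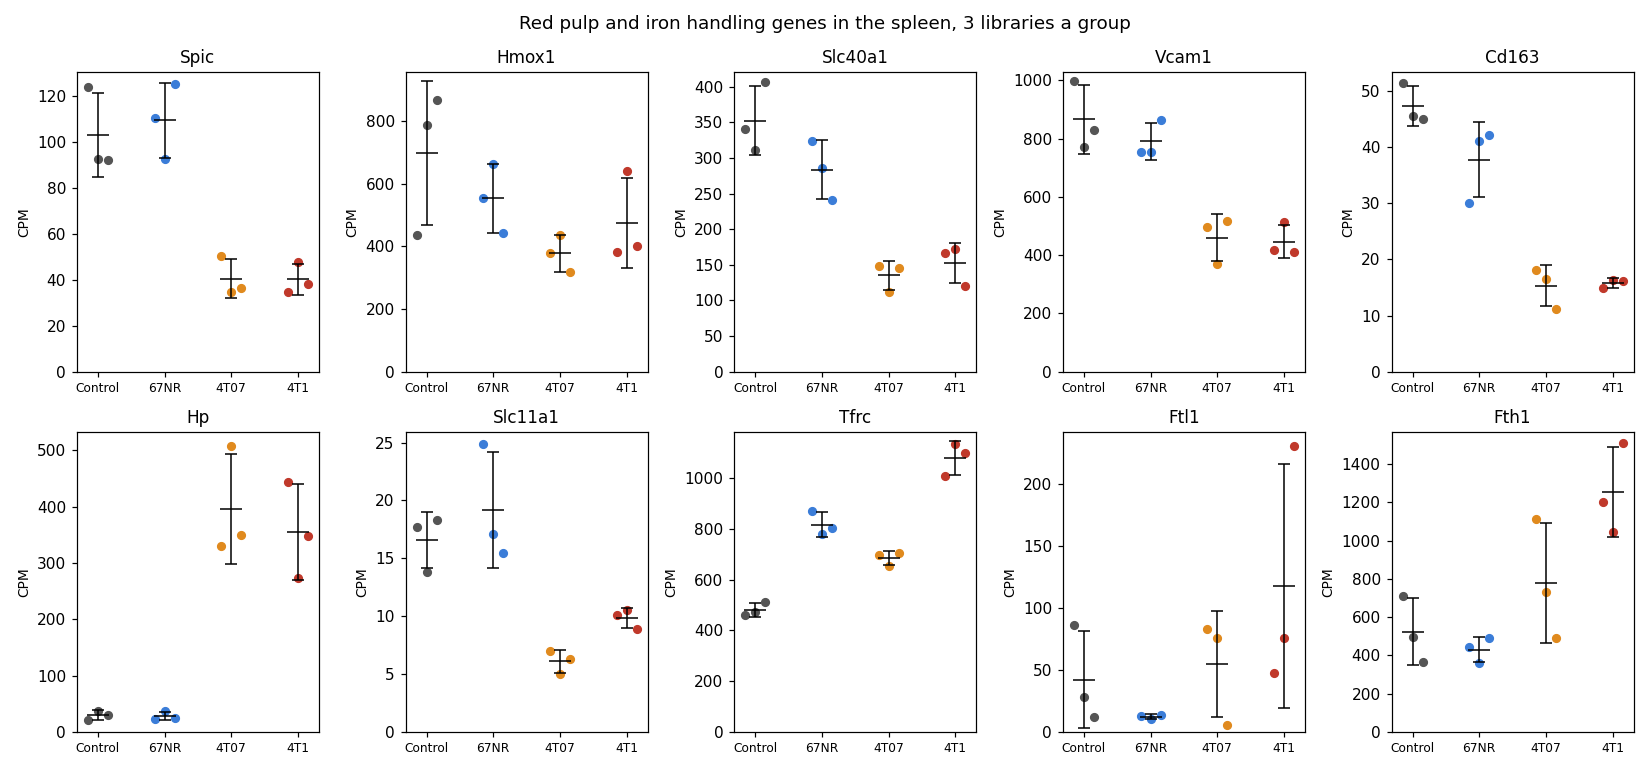
Each of the 10 genes in the spleen, with the group on the x axis and CPM on the y axis (linear, from 0). Points are libraries, and the bar and whiskers are the mean and SD of 3 libraries. Spic, Slc40a1, Vcam1 and Cd163 lie lower, and Hp higher, in every 4T07 and 4T1 spleen than in any control spleen.

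The ferritin values stood beside large differences in ribosomal protein RNA. The 85 ribosomal protein genes summed to 44610.0 to 75686 CPM in control spleens, with library 7 highest in both that sum and Ftl1 (75686 CPM and 86.0 CPM). Library 30, a 4T07 spleen, had the lowest Ftl1 of all libraries, at 5.44 CPM (19 counts), beside 34955 CPM of ribosomal protein RNA, the lowest of its group. With the log2 of that sum as a covariate, a choice made after the values were seen, Fth1 and Ftl1 were called in 4T07 spleens against control (1.16, adjusted p = 3.39e-04, and 1.95, adjusted p = 0.00613) and no longer in 4T07 against 67NR (0.80 and 1.05). In 4T1 spleens against control both were called with the covariate too (1.70 and 2.55). Ftl1 has a near-identical copy in the table, Ftl1-ps1, at 1.72 to 122 CPM, so reads of these genes could have been split between them.

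In the lung, 4T1 mice held more Slc40a1 and Slc11a1 than control mice, and the other 8 members were not called. Ftl1, at -0.78, was called without library 6 or 37 (-1.07 and -1.18). Of the members, 2 were called in 4T1 against control lungs (4.61% of 21937 genes), 3 in 4T1 against 67NR (5.03%) and 1 in 67NR against control (4.25%). Slc40a1 had 15.2, 14.8 and 12.5 CPM in control, 23.8, 13.6 and 13.2 CPM in 67NR and 83.7, 105 and 53.4 CPM in 4T1 lungs. Each 4T1 lung lay above every control and 67NR lung, a 5.74-fold rise over control (log2 fold change 2.52, SE 0.23, adjusted p = 2.39e-07). Slc11a1 measured 2.27, 1.62 and 1.46 CPM in control, from 9 to 13 counts a library, and 8.53, 16.1 and 8.54 CPM in 4T1 lungs (log2 fold change 2.64, SE 0.32, adjusted p = 1.06e-05). Its 67NR values of 3.64, 2.44 and 4.05 CPM lay above every control and under every 4T1 value, and were not called against control. Against 67NR, both genes rose in 4T1 lungs, Slc40a1 by 2.39 and Slc11a1 by 1.83 on the log2 scale. Neutrophil genes summed to 230.3 to 307 CPM in control and 67NR lungs and 11805 to 27962 CPM in 4T1 lungs, and their part in these rises was not tested.

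Spic, the red pulp factor, was not called in the 4T1 lung. It had 2.90, 0.989 and 2.25 CPM there, 7 to 18 counts a library, which overlapped the 4.18, 2.16 and 1.78 CPM of control (log2 fold change -0.41, SE 0.44, adjusted p = 0.666). Hmox1 was 82.7, 59.3 and 45.0 CPM in 4T1 lungs, 42.2, 36.6 and 37.7 CPM in control and 36.2, 29.2 and 32.8 CPM in 67NR lungs. It was called against 67NR (log2 fold change 1.05, SE 0.22, adjusted p = 0.00479), not against control (log2 fold change 0.69, SE 0.22, adjusted p = 0.0611), and the first call was lost without library 14 (0.98) or 37 (0.79), with library totals (0.93) or with the ribosomal protein covariate (0.92). Vcam1 in 4T1 lungs, at 100.5, 86.3 and 106 CPM, lay under every control (181, 161 and 137 CPM) without reaching a 2-fold difference (log2 fold change -0.70, SE 0.15, adjusted p = 0.00420). Hp was 896, 962 and 763 CPM in 4T1 lungs, which overlapped control, and 636, 531 and 573 CPM in 67NR lungs, under every control, and was not called in either. Ftl1 fell in 67NR lungs against control (log2 fold change -1.24, SE 0.31, adjusted p = 0.0179), with 14.2, 25.5 and 15.3 CPM against 47.6, 49.2 and 24.3 CPM, which overlapped. That call was lost without library 15 (adjusted p = 0.103), and the covariate turned it to 0.50, adjusted p = 0.959. The ribosomal protein sums of 67NR lungs (20779 to 23674 CPM) and control lungs (28688 to 45022 CPM) did not overlap. Covariate and group thus cannot be told apart in that comparison. Refitting the 9 lungs without those of 4T07 gave 6 calls in these 3 comparisons, as many as with them.

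The libraries labelled 4T07 lung, which held spleen stroma, erythroid and dividing cell RNA as described above, had the highest lung levels of Spic, Hmox1, Vcam1, Slc40a1 and Tfrc. Calls numbered 6 against control (29.0% of 21937 genes), 7 against 67NR (29.7%) and 4 in 4T1 against 4T07 lungs (23.5%). Spic measured 30.3, 34.9 and 23.6 CPM in these lungs, beside 50.2, 34.7 and 36.4 CPM in 4T07 spleens and no more than 5.55 CPM in any other lung (log2 fold change 3.51, SE 0.35, adjusted p = 6.96e-08). Slc40a1 was 115, 135 and 115 CPM in lungs and 148, 111 and 146 CPM in spleens of 4T07 mice. Vcam1 stood at 415, 473 and 410.2 CPM beside 496, 369 and 515 CPM, and Tfrc at 821, 785 and 627 CPM beside 697, 654 and 704 CPM. For these 4 genes the 4T07 lungs thus lay nearer to the 4T07 spleens than to the control lungs. Ftl1 did not share this. Its means were 20.0 ± 5.62 CPM in 4T07 lungs, 54.7 ± 42.8 CPM in 4T07 spleens and 40.4 ± 14.0 CPM in control lungs (± SD). Hp lay between the spleen and control lung means, at 532 ± 73.7, 396 ± 97.7 and 722 ± 69.2 CPM in that order. Neutrophil genes summed to 24276 to 29249 CPM in 4T07 lungs, and their part in these values was not tested. Hmox1 had 284, 216 and 141 CPM (log2 fold change 2.52, SE 0.22, adjusted p = 1.66e-08), and Slc11a1 6.77, 8.26 and 7.81 CPM (log2 fold change 2.15, SE 0.34, adjusted p = 2.46e-05). Cd163 was called against 67NR lungs (1.24 on the log2 scale), which library 25 decided (0.98 without it). Against control lungs Cd163, at 0.94, was called only without library 6, 26 or 27 (1.24, 1.06 and 1.08). Ftl1, at -0.95 against control, was called only with library totals (-1.01) or without library 6 or 26 (-1.21 and -1.12). All 3 libraries of the group stood apart, so an effect of 4T07 tumors on the lung and what set these libraries apart cannot be told apart.

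**Figure D3:**
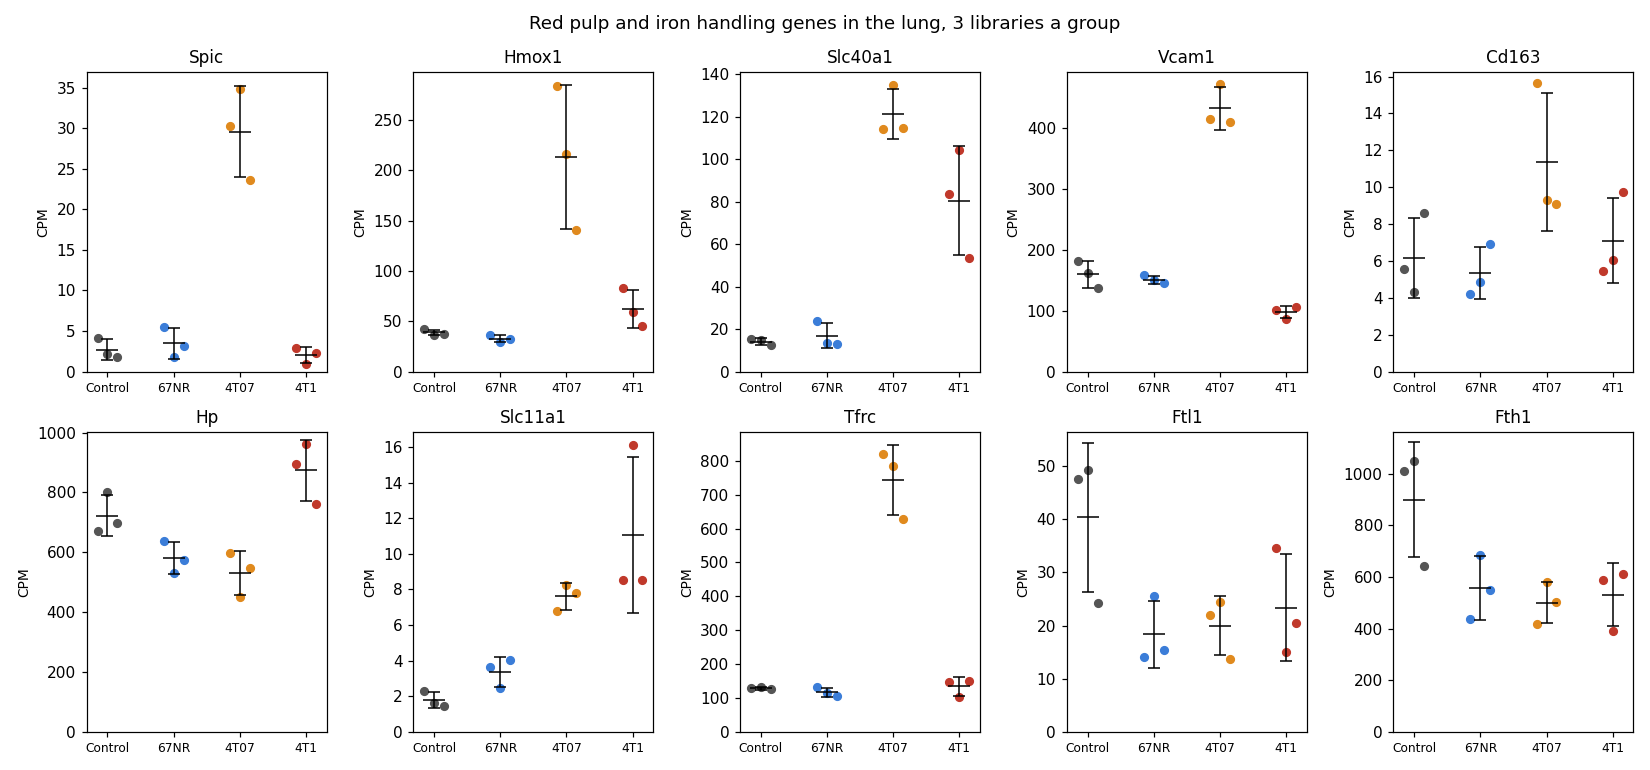
Each of the 10 genes in the lung, with the group on the x axis and CPM on the y axis (linear, from 0). Points are libraries, and the bar and whiskers are the mean and SD of 3 libraries. Slc40a1 is higher in all 3 4T1 lungs than in control, and Spic, Vcam1 and Tfrc are high only in the 4T07 lungs, which carry spleen stroma RNA.

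In the scaffold, ferritin RNA was lower in 4T07 mice than in the other groups, and no member was called in 67NR or 4T1 scaffolds against control. Calls came to 2 in 4T07 against control (7.44% of 22156 genes), 2 in 4T07 against 67NR (5.85%) and 3 in 4T1 against 4T07 (1.00%). In 67NR against control 0 members were called (0% of genes, of which edgeR gave 626 an unadjusted p under 0.05 and DESeq2 called 1), and 0 members had an unadjusted p under 0.05 or a DESeq2 call. In 4T1 against control edgeR called 0 (0.0226%), with 3 at an unadjusted p under 0.05 and 0 in DESeq2, and in 4T1 against 67NR 0 (0.0226%), with 2 at an unadjusted p under 0.05 and 1, Hp, in DESeq2. Ftl1 had 189, 453 and 381 CPM in control, 427, 374 and 388 CPM in 67NR, 102, 97.3 and 29.8 CPM in 4T07 and 169, 310.1 and 480.3 CPM in 4T1 scaffolds. All 3 4T07 values lay under the rest (log2 fold change -2.28, SE 0.42, adjusted p = 0.00282). Fth1 fell alongside, with 1059.6, 1114 and 875 CPM in 4T07 against 1696, 2867 and 2432 CPM in control (log2 fold change -1.33, SE 0.22, adjusted p = 0.00147). Ribosomal protein genes summed to 23316 to 37772 CPM in 4T07, 47512 to 51801 CPM in control and 23800.2 to 43008 CPM in 4T1 scaffolds. The 4T07 and control sums did not overlap, so between these groups the sum and the group cannot be told apart. With the sum as a covariate the ferritin changes were -1.62 for Ftl1 and -1.05 for Fth1, both still called. Without library 22 they were -2.52 and -1.34.

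Within the 4T07 scaffolds, Spic, Slc40a1, Vcam1 and Tfrc were each highest in library 22, at 12.7, 37.8, 191 and 350.2 CPM. That library held 25614 CPM of erythroid RNA. The other 4T07 scaffolds had 5.31 and 2.02 CPM of Spic and 213 and 191 CPM of Tfrc. Cd163 in 4T07 against control was not called (-0.77), but it was without library 22 (-1.06, adjusted p = 0.0570) or control library 2 (-1.05). Spic in 4T07 against control was called only with the ribosomal protein covariate, at 2.03. Hp was 237, 398 and 224 CPM in 4T1 scaffolds, above every control (142, 204 and 83.0 CPM), and its difference was called against 4T07 (log2 fold change 1.14, SE 0.31, adjusted p = 0.0980), not against control (log2 fold change 0.87, SE 0.31, adjusted p = 0.295). Leaving out any of 8 single libraries (10, 11, 12, 23, 24, 34, 35 or 36) ended that call, with values from 0.89 to 1.26, and so did library totals (1.12). The sum of 7 adipocyte genes was 1108 to 1342 CPM in 4T1, 434 to 599 CPM in 4T07 and 847 to 1118 CPM in control scaffolds. Neutrophil genes summed to 2010 to 3149 CPM in 4T1 and 1990 to 8820 CPM in 4T07 scaffolds. The part of either list in the Hp values was not tested. The ferritin calls in 4T1 against 4T07 scaffolds were log2 fold change 2.11, SE 0.42, adjusted p = 0.0431 for Ftl1, lost without library 23, 24 or 36 (2.35, 1.73 and 1.63), and log2 fold change 1.24, SE 0.22, adjusted p = 0.0280 for Fth1, lost without library 24 (1.14). When only the 4T1 and 4T07 scaffolds were fitted, none of Hp, Ftl1 and Fth1 was called. Slc11a1 had its highest levels of any tissue here, at 27.9 to 75.9 CPM over the 12 scaffolds, and Hmox1 ran from 129.7 to 333 CPM with overlap between all groups.

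In primary tumors, Hmox1 and Vcam1 were higher in 4T07 and in 4T1 than in 67NR tumors, and Hp was highest in 4T1. Tumors were tested at an adjusted p under 0.05 with the same fold threshold, and there is no control tumor. Calls numbered 6 in 4T07 against 67NR (28.9% of 20508 genes), 3 in 4T1 against 67NR (20.7%) and 4 in 4T1 against 4T07 (8.61%). Vcam1 measured 46.5, 32.7 and 29.1 CPM in 67NR, 316, 289.6 and 284 CPM in 4T07 and 187, 170.1 and 151 CPM in 4T1 tumors. These groups did not overlap, and the rise over 67NR was 6.93-fold in 4T07 (log2 fold change 2.79, SE 0.18, adjusted p = 4.34e-08) and 4.10-fold in 4T1 (log2 fold change 2.03, SE 0.18, adjusted p = 6.01e-07). Hmox1 had 108, 96.8 and 97.1 CPM in 67NR, 413, 467 and 419 CPM in 4T07 and 225, 255 and 248 CPM in 4T1 tumors, again without overlap (log2 fold change 1.86, SE 0.15, adjusted p = 2.54e-07 in 4T07, and log2 fold change 1.07, SE 0.15, adjusted p = 5.01e-05 in 4T1). Both genes kept these calls with the ribosomal protein covariate and without library 31. Hp rose in 4T1 over 67NR, with 310.1, 561 and 198 CPM against 84.9, 60.1 and 64.6 CPM (log2 fold change 2.15, SE 0.31, adjusted p = 8.10e-05). Neutrophil genes summed to 22.9 to 380 CPM in 67NR, 1041 to 5348 CPM in 4T07 and 534 to 835 CPM in 4T1 tumors. The sums of 6 epithelial genes were 18.3 to 30.2, 165 to 226 and 988 to 1102 CPM in that order, and endothelial sums overlapped between the lines. The part of these cells in the Hmox1, Vcam1 and Hp values was not tested. Cd163 was 77.7, 33.0 and 39.5 CPM in 67NR, 64.0, 89.6 and 95.7 CPM in 4T07 and 47.2, 69.1 and 44.7 CPM in 4T1 tumors, which overlapped between the lines.

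Spic, Slc40a1, Slc11a1 and Tfrc were called higher in 4T07 tumors, and most of these calls rested on library 31, which carried 22631 CPM of erythroid and 13.6 CPM of spleen stroma RNA. Slc40a1 was 31.9, 11.2 and 7.90 CPM in 4T07 tumors, library 31 first, and 5.91, 5.04 and 6.21 CPM in 67NR. Without library 31 its change fell from 1.33 to 0.46, adjusted p = 0.313, and without library 19, 20 or 21 it also missed the p threshold (1.32, 1.27 and 1.35). Spic was 8.83, 3.63 and 4.23 CPM in 4T07 and 1.61, 1.40 and 0.847 CPM in 67NR tumors, 3 to 6 counts a library in the latter, at log2 fold change 1.85, SE 0.54, adjusted p = 0.0123, and missed without library 31 (1.29, adjusted p = 0.0957) or 21 (1.58). Slc11a1 had 22.9, 12.5 and 17.5 CPM in 4T07, 7.26, 6.43 and 7.34 CPM in 67NR and 3.84, 4.71 and 6.91 CPM in 4T1 tumors. It was called in 4T1 against 4T07 with and without library 31 (-1.72 and -1.48), but in 4T07 against 67NR only with it (1.08, and 0.79 without). With the ribosomal protein covariate neither Slc11a1 call held (-1.12 in 4T1 against 4T07, adjusted p = 0.0720). Tfrc stood at 262, 139 and 102 CPM in 4T07 and 59.9, 32.5 and 53.1 CPM in 67NR tumors (1.54, and 1.03 without library 31, both called), and was not called with that covariate (1.16, adjusted p = 0.247).

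Between 4T1 and 4T07 tumors, Spic and Slc40a1 were called lower in 4T1 (-2.08 and -1.78 on the log2 scale), and neither was called without library 31 (-1.57 and -0.96). The Slc40a1 call was also lost without 4T1 library 43 (-1.56). That of Spic was lost without library 44 or 45 (-1.85 and -1.78) and moved to -2.82 without library 43. Hp was called higher in 4T1 than in 4T07 tumors (log2 fold change 1.24, SE 0.30, adjusted p = 0.0114) although the groups overlapped, and was not called without library 33 (1.06) or 44 (0.77). The ribosomal protein sum was 76154 to 88170.4 CPM in 67NR and 42557 to 73139.5 CPM in 4T07 and 4T1 tumors. The 67NR tumors did not overlap the others, so in comparisons with 67NR that sum and the line cannot be told apart. Adding the sum as a covariate took calls from 6 to 2 (Hmox1 and Vcam1) in 4T07 against 67NR. Calls went from 4 to 0 in 4T1 against 4T07 and from 3 to 4 in 4T1 against 67NR. Slc11a1 in 4T07 against 67NR turned to -0.16. Fth1, at 778 to 2051 CPM, was not called in any tumor comparison, and without library 19, 31 or 32 it was called in 4T07 against 67NR (-1.19, -1.01 and -1.18, from -0.94).

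**Figure D4:**
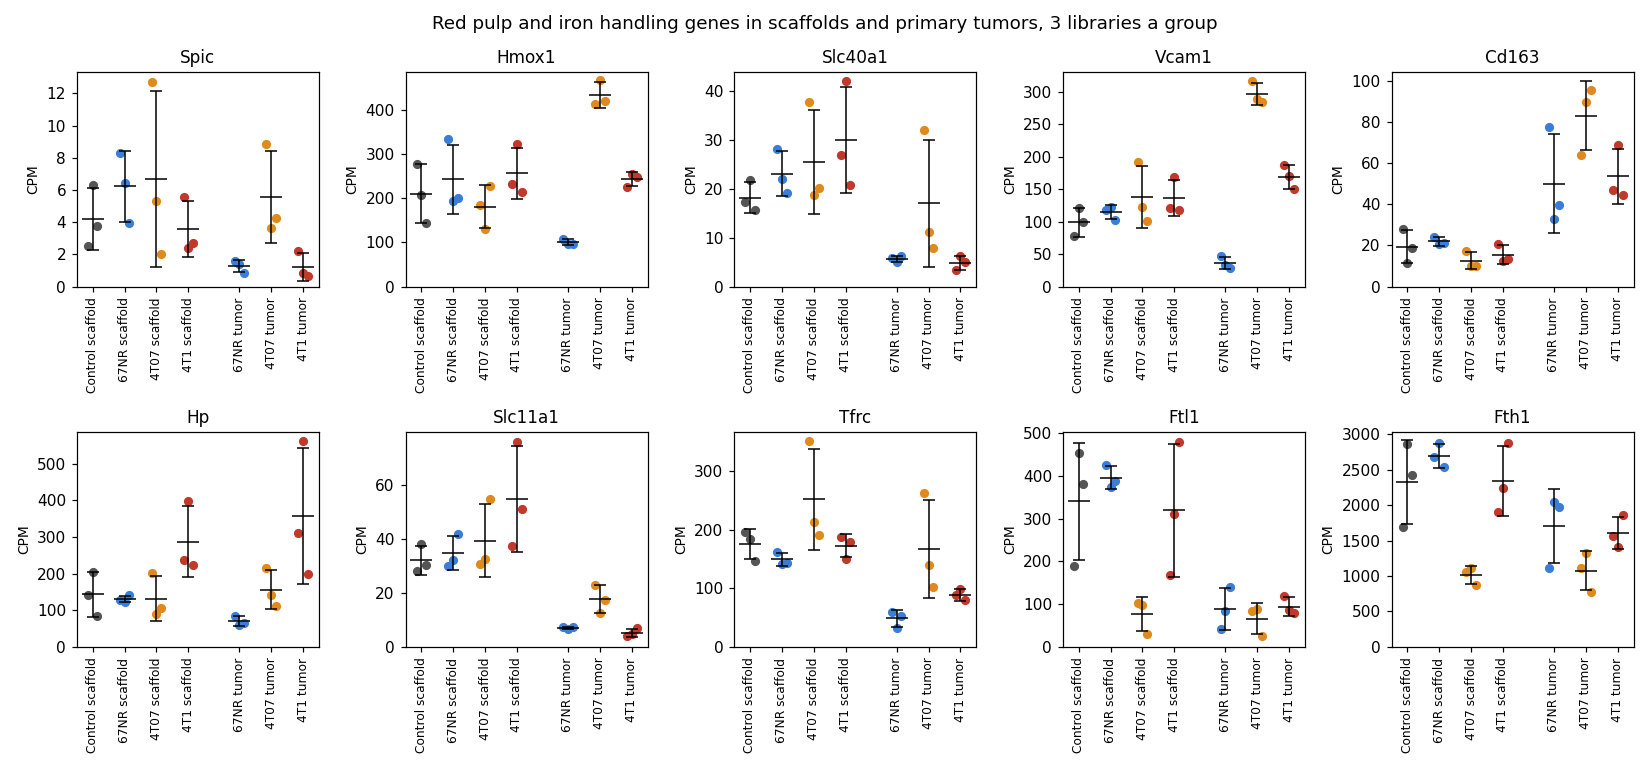
Each of the 10 genes in scaffolds and primary tumors, with the group on the x axis and CPM on the y axis (linear, from 0). Points are libraries, and the bar and whiskers are the mean and SD of 3 libraries. Among scaffolds Ftl1 and Fth1 are lowest in 4T07, Vcam1 and Hmox1 rise from 67NR over 4T1 to 4T07 tumors, and 1 4T07 tumor (library 31) lies above the other tumors in Slc40a1.

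**Figure D5:**
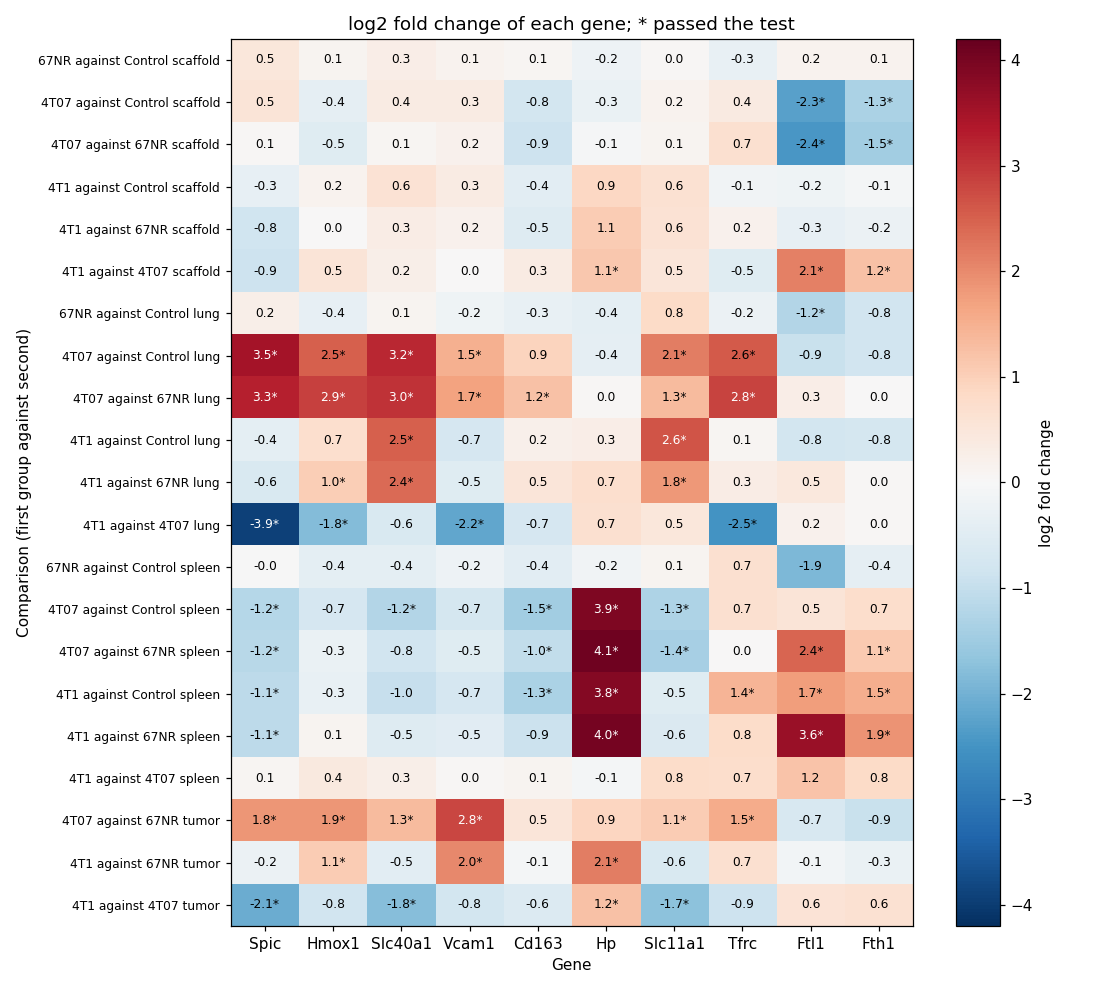
log2 fold change of each gene (columns) in the 21 comparisons within tissues (rows, first group against second), by color and printed value. A star marks a change of more than 2-fold at an adjusted p under 0.10, or under 0.05 in tumors. Hp is the gene with the largest rises in the spleen, and Spic and Slc40a1 in 4T07 lungs against control and 67NR lungs.

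The 4T1 effect was then compared between tissues by an interaction term over the 18 control and 4T1 libraries of scaffold, lung and spleen. Of the members, 7 differed between spleen and lung (12.9% of 23904 genes), 6 between spleen and scaffold (12.1%) and 3 between lung and scaffold (0.950%). The 3 interactions share groups. Ferroportin had opposite signs: Slc40a1 in 4T1 mice was 2.52 in lung and -0.96 in spleen on the log2 scale, and the spleen effect minus the lung effect was -3.46, SE 0.33, adjusted p = 6.49e-06. For Slc11a1 (2.64 in lung and -0.50, not called, in spleen) it was -3.12, SE 0.43, adjusted p = 9.93e-05. Spic showed no called difference between tissues (-0.68, SE 0.52, adjusted p = 0.442 for spleen minus lung), with few counts in lung. Hp differed the other way, at 3.58, SE 0.39, adjusted p = 1.58e-05 for spleen minus lung and 2.97, SE 0.39, adjusted p = 7.97e-05 for spleen minus scaffold. The 4T1 effect on Tfrc and Fth1 was also higher in spleen than in lung and in scaffold (1.37 and 1.55 for Tfrc, 2.28 and 1.60 for Fth1).

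Heavy and light ferritin tags were also compared within libraries, as the ratio of Fth1 to Ftl1 counts, which does not depend on scaling. The ratio was lowest in 67NR, control and 4T1 scaffolds, by geometric mean, from 6.33 to 8.97 in control. It ran from 10.4 to 29.3 in 4T07 scaffolds, where no value overlapped control. In control lungs it was 21.2 to 26.4, and in control spleens 8.27 to 30.9. The 67NR spleens were the most alike, from 34.6 to 36.1, above every control and every 4T1 spleen (6.55 to 25.1). An exact permutation test of 3 against 3, two-sided, cannot go below p = 0.1. That value was reached in 5 of the 21 comparisons, and after Benjamini-Hochberg adjustment the smallest p was 0.42. With that floor an adjusted p under 0.10 could not occur in any comparison, so the test cannot decide whether the ratios differ.

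Other iron and heme genes, a list of 44 of which 39 to 42 were tested in each tissue, had called members in spleens, lungs and tumors. In 4T1 against control spleens 12 of 39 rose and 1 fell (19.9% of all genes were called), with a median log2 fold change of 0.52 beside -0.10 over all genes. The iron-binding neutrophil granule proteins Lcn2 (419 ± 214 against 7.20 ± 2.03 CPM, log2 fold change 6.13, adjusted p = 7.90e-08) and Ltf (367 ± 195 against 6.49 ± 1.71 CPM, log2 fold change 6.08, adjusted p = 8.86e-08) rose most. Alas1, the first enzyme of heme synthesis, rose as well (101 ± 41.3 against 17.8 ± 0.822 CPM, log2 fold change 2.77, adjusted p = 1.29e-06). The metalloreductases Steap4 and Steap3 rose by 3.43 and 1.99 on the log2 scale, and Blvrb, biliverdin reductase B, by 1.41. In 4T1 against control lungs 5 of 42 rose and 1 fell (4.61% of all genes were called): Lcn2 (2.44), Steap4 (2.21), Ltf (4.30), the mitochondrial iron importer Slc25a37 (1.06) and the iron sensor Fbxl5 (1.12) rose, and Hmox2 (-1.20) fell. In tumors 8 of 39 rose and 4 fell in 4T1 against 67NR (20.7% of all genes were called). Those higher included the ferroxidase Cp (474 ± 71.8 against 71.3 ± 10.3 CPM, log2 fold change 2.54, adjusted p = 2.19e-07), Lcn2 (3.86), the metal importer Slc39a14 (1.79) and the ferritin receptor Scara5 (2.27). Steap1 (-1.53), a member of the Steap family, and the iron importer Slc11a2 (-1.56) were among those lower. In 4T1 against control scaffolds edgeR called 0 of 39, with 11 at an unadjusted p under 0.05, and DESeq2 called 2.

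Other macrophage genes, a list of 18 that were all tested, had called members in spleens, lungs and tumors. In 4T1 against control spleens 5 of 18 fell and 0 rose, beside 19.9% of all genes called, with a median log2 fold change of -0.69 beside -0.10 over all genes. The scavenger receptor Marco (116 ± 42.7 against 412 ± 99.3 CPM, log2 fold change -1.58, adjusted p = 8.22e-05), the nuclear receptor Nr1h3 (-1.12), the phagocytic receptor Mertk (-1.02), the complement gene C1qa (-1.08) and the sialoadhesin gene Siglec1 (-1.01) fell. In 4T07 against control spleens 4 of 18 fell and 0 rose, beside 18.6% of all genes. These shares were near those of all genes. In 4T1 against control lungs (4.61% of all genes) 1 of the 18, Cd5l, rose (5.93 ± 2.81 against 2.26 ± 0.731 CPM, log2 fold change 1.40, adjusted p = 0.0258), and in 4T1 against control scaffolds edgeR called 0, with 4 at an unadjusted p under 0.05, and DESeq2 called 0. In 4T1 against 67NR tumors (20.7% of all genes) 1 rose, Mertk (1.75), and 2 fell, Siglec1 (-2.17) and Adgre1 (-1.39), the gene of the macrophage antigen F4/80.

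The genes with the pattern most like that of a member over the 15 groups were found by Pearson's r of log2(mean CPM + 1), among 14980 genes with a group mean of at least 5 CPM. These are descriptions, since groups share tissues and the 4T07 lungs enter them. For Spic they were Tlx1 (r = 0.985), Stab2 (r = 0.985) and Coch (r = 0.984), each highest in control or 67NR spleen. Tlx1 and Stab2 also belong to the spleen stroma list, which was chosen after the values were seen. For Slc40a1 they were A930002C04Rik (r = 0.957), Drp2 (r = 0.953) and Mir142hg (r = 0.951), highest in control spleen. Hmox1 was most like Scarna17 (r = 0.939), Sh2b2 (r = 0.927) and Batf3 (r = 0.924), and Cd163 most like Wdr43 (r = 0.938), Ncl (r = 0.931) and Cxcl10 (r = 0.930). The closest to Hp were Tmem164 (r = 0.900), Pef1 (r = 0.899) and Csgalnact2 (r = 0.895), all highest in 67NR lung, and those to Slc11a1 were Cd300a (r = 0.936), Pla2g7 (r = 0.927) and Cyth4 (r = 0.921), all highest in scaffolds. Ftl1 and Fth1 were near each other's pattern, at r = 0.956.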

How the data were processed

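RNA was measured in 45 mouse libraries (3 in each of 15 groups) by 3′ mRNA sequencing with unique molecular identifiers. Per the deposited table the values are raw counts per gene symbol. The submitters' processing notes name Trim Galore 0.5.0, STAR 2.6.0 and featureCounts, and the genome build, the annotation and whether identifiers were collapsed are not given in the sources used here. Strand setting and multimapped reads can shift genes with near-identical copies, such as Ftl1. Counts on 120 repeated lines were summed into 55367 symbols. Totals were 3491888 to 8175380 counts.

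Groups came from the labels. Genes with more than 10 counts over the fitted libraries were tested in R 4.3.3 by edgeR 4.0.16 (quasi-likelihood, TMM scaling, Benjamini-Hochberg adjustment), 1 model per tissue, 1 for control tissues, and 1 for the 4T1 effect between tissues. SEs are the size of the log2 fold change over the square root of F. The thresholds were those of the study's methods. CPM are counts divided by the library total and multiplied by 1000000. The procedure was tested on simulated counts with the same relative spread for every gene, so that test does not cover genes that varied as widely as Ftl1. Alternatives were DESeq2 1.42.0, its size factors in edgeR, library totals, other count filters, only the compared groups and each library left out. A ribosomal protein covariate and fits without the 4T07 lungs were added after seeing the data. In some comparisons the covariate did not overlap between the groups, and it then cannot be told apart from the group.

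The 10 members and the gene lists were chosen with earlier results of these data known. Named besides the members were up to 6 called genes of each list with the smallest adjusted p in 4T1 against control (67NR for tumors), and the 3 genes most like 6 of the members. The iron-responsive element search used GENCODE vM1 transcripts on NCBIM37, which is not known to be the build of the counts.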

Additional observations from a re-analysis of the deposited data

Results flagged for a closer look

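The 4T1 effect on a member, 4T1 against control on the log2 scale, differed between 2 tissues in 16 cases by the interaction term of edgeR's quasi-likelihood fit, at an adjusted p under 0.10 and more than 2-fold. Spleen minus lung came to -3.46 for Slc40a1, -1.52 for Cd163, 3.58 for Hp, -3.12 for Slc11a1, 1.37 for Tfrc, 2.54 for Ftl1 and 2.28 for Fth1. Ftl1 was not called there without library 8, 38 or 42, with a value of 1.54 at the lowest, and moved to 3.66 without library 7.

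Spleen minus scaffold came to -1.56 for Slc40a1, -1.06 for Vcam1, 2.97 for Hp, -1.16 for Slc11a1, 1.55 for Tfrc and 1.60 for Fth1. Slc11a1 was not called without library 35, at -0.90, and Vcam1 not without library 1, 7 or 35, at -0.92 at the nearest to 0.

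Lung minus scaffold came to 1.90 for Slc40a1, -1.07 for Vcam1 and 1.97 for Slc11a1, of which Vcam1 was not called without any of libraries 1, 3, 4, 5, 35, 37 or 38.

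Neutrophil genes were higher in all 4T1 lungs and spleens than in any control lung or spleen, and their part in these differences was not tested.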

How the results depend on the processing

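Of the alternatives for members called in the reported fits, 1787 kept the direction and the call, 83 lost the call and 2 reversed, both under the ribosomal protein covariate: Ftl1 in 67NR against control lung, to 0.50, and Slc11a1 in 4T07 against 67NR tumors, to -0.16. Among members not called in the reported fits, Ftl1 in 4T07 against 67NR lungs went from 0.29 to -1.09 with that covariate, and 65 other alternatives added a call in the same direction. In each of these reversals the ribosomal protein sums of the compared groups did not overlap, so covariate and group cannot be told apart. The cause was not tested. In scaffolds 7 members were called over the 6 comparisons, 4 with only the compared groups and 11 with the covariate. In tumors 13 were called, and 6 with the covariate. Leaving out 1 library gave 4 to 9 calls in scaffold, 22 to 27 in lung (reported, 23), 17 to 22 in spleen (21), 9 to 15 in tumor (13), 22 to 25 between control tissues (24) and 14 to 18 for the 4T1 effect between tissues (16). With at least 10 counts in every library, lung calls came to 16, since Spic and Slc11a1 were then not tested. The log2 difference of the Fth1 to Ftl1 ratio in 4T1 ranged from -0.11 to 0.34 in scaffold, -0.12 to 0.29 in lung, -0.82 to 0.18 in spleen and -0.55 to -0.08 in tumor when 1 library was left out. Library totals in place of TMM moved the median of all genes by -0.35 to 0.25 on the log2 scale. No paired analysis was possible because the groups share no replicate numbers and the labels do not link tissues of a mouse. Spic had 3 to 6 counts a library in 67NR tumors, near the floor of 3 counts, so small differences there were not detectable at this depth.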
